A study of Mus musculus with 6 samples.

Results

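Fbxo2, Insl3, Mxra8 and Tagap1 were examined in RNA sequencing libraries of a mouse co-culture, as 4 of 21399 gene symbols measured. They were chosen because every KO-labelled library lay below every WT-labelled library for each of them, so their levels in this contrast are given as a description, with no test. The study, on PPARα in microglia after ischaemic stroke, made 3 libraries labelled KO and 3 labelled WT. Microglia of KO or WT mice carrying the CD45.2 allele were put through oxygen and glucose deprivation and then reoxygenated together with peritoneal macrophages of CD45.1 mice, a treatment that both groups shared. The labels give neither the deleted gene by name nor the strain, age, sex or number of animals, and separate cultures or animals behind the libraries are not stated. All p-values below thus measure only how far these libraries vary, a spread that could be technical. The design text calls the sorted cells microglia but gives them the CD45.1 mark of the added macrophages, while the source label names both cell types.

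Fbxo2 encodes an F-box protein, the substrate-binding part of an SCF ubiquitin ligase (a complex of Skp1, Cul1 and an F-box protein). It recognises high-mannose sugar chains on glycoproteins, acts in their disposal from the endoplasmic reticulum and is best known from neurons. Insl3 encodes a peptide hormone of the relaxin family that Leydig cells of the testis secrete. Mxra8 encodes a membrane protein with immunoglobulin domains that serves as an entry receptor for arthritis-causing alphaviruses. Tagap1 is a close relative of Tagap, a gene of activated T cells.

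Sequence set 2 of these genes apart from the others. In GENCODE M21, an annotation of GRCm38 (the mm10 assembly), Insl3 lies on the plus strand of chromosome 8 from 71689214 to 71690575, entirely inside the span of Jak3, which encodes a kinase of lymphocyte cytokine receptors and runs on the same strand from 71676296 to 71690575. The last exon of Insl3 is also, with identical ends, the last exon of an annotated Jak3 transcript. It runs from 71690172 to 71690575 and holds 404 of the 623 exonic bases of Insl3, 64.8%. For Insl3 this exon carries the end of the coding sequence and 210 bases after the stop codon, whereas in that Jak3 transcript all 404 bases follow the stop codon. The exon junctions are printed to show that both transcripts splice into the same exon, with 15 bases of the preceding exon in lower case and the opening 15 bases of the shared exon in capitals.
Insl3: tggagacccgggaccGGGAGCTGCTGCAGT
Jak3: cagccaggggcgagaGGGAGCTGCTGCAGT

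**Figure D1:**
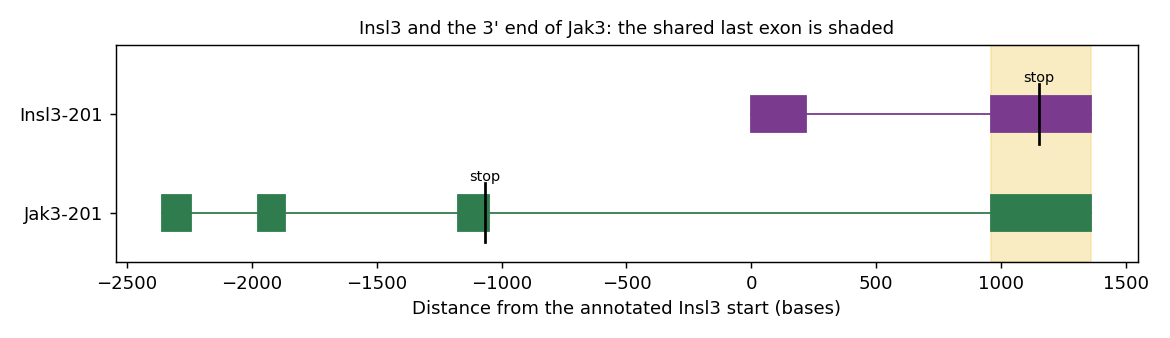
Exons (boxes) of the Insl3 transcript and of the 3′ end of the Jak3 transcript that shares its last exon, against the distance in bases from the annotated start of Insl3, with stop codons as vertical lines. The shaded last exon, 404 bases long, is common to both transcripts and lies after the stop codon of Jak3.

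Windows of 50 bases taken from each gene's transcripts were looked up in all other GENCODE transcripts. Of the windows of Insl3, 61.8% (355 of 574) were also found in another gene, and that gene was Jak3 in every case. Of the windows of Tagap1, 76.2% (1725 of 2263) were found elsewhere, most of them in Tagap, which alone or with others held 1441. The longest identical run between Tagap1 and Tagap was 386 bases. Tagap1 (chromosome 17, minus strand, 6955011 to 6961156) is also overlapped by the antisense gene Gm49719, which is not analysed here. Mxra8 (chromosome 4, plus strand, 155839680 to 155844088) shared 5.26% of its windows, with its antisense gene, and Fbxo2 (chromosome 4, plus strand, 148160621 to 148166424) shared 0%. The sources used here name no counting tool or strand setting. Reads of Insl3 and Jak3, and of Tagap1 and Tagap, can therefore not be told apart with certainty, while Fbxo2 is free of this limit in this annotation. The lengths that fit the deposited values differ from the exonic bases in this annotation. They were 3194 against 2312 bases for Tagap1, 1359 against 1288 for Fbxo2, 2263 against 2918 for Mxra8 and 587 against 623 for Insl3. The gene models behind the deposited values may therefore differ, and shared windows were not looked up in them.

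Stretches upstream of the genes are printed for Fbxo2, which starts 138 bases from the opposite-strand F-box gene Fbxo44, and for Insl3, whose start lies in an intron of Jak3. The capitals mark CCGGAAG (a core of ETS-factor sites) and GGGCGG (a GC box), searched on both strands. The sequences are RefSeq's, build GRCm38.p6, plus strand, chr4:148160483-148160620 for Fbxo2 and chr8:71689002-71689213 for Insl3.
Fbxo2: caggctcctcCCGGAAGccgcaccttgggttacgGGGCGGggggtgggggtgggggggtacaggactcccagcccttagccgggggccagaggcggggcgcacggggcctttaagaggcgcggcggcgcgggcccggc
Insl3: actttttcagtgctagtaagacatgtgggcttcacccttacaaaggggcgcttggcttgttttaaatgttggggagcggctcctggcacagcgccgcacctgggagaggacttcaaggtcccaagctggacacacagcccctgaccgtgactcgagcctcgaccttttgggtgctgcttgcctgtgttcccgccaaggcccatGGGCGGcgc
Over the 250 bases before the RefSeq start, the GC content was 71.6% for Fbxo2, 67.2% for Tagap1, 59.2% for Insl3 and 56.8% for Mxra8, against a median of 52.4% (interquartile range 45.2% to 61.2%) over 32851 promoters. GGGCGG occurred at 3 places in Tagap1, 1 in Fbxo2, 1 in Insl3 and 0 in Mxra8, and 32.7% of all promoters hold it. CCGGAAG occurred at 1 place in Fbxo2 and at 0 in the other 3 genes, and 6.91% of all promoters hold it. AGGTCA, a core element of many nuclear receptor sites, and TATAAA, the TATA box, occurred at 0 places in the 4 windows. Of all promoters, 14.0% hold AGGTCA and 12.4% hold TATAAA. These are matches of letters in windows, not binding sites.

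The libraries were alike in depth and differed in the RNA of cell type markers. Whole reads recovered from the deposited FPKM values summed to between 33997694 and 36711141 in KO-labelled libraries and to between 33253853 and 35301811 in WT-labelled libraries. Ppara had 10 to 23 reads in KO-labelled and 1 to 11 reads in WT-labelled libraries, at most 0.0588 FPKM, so it was not lower in the KO-labelled ones. Whether that goes against the label, if that gene was the one deleted, these few reads cannot tell. The culture also held macrophages of CD45.1 mice, which the KO and WT labels do not describe. A gene-level value does not check the deletion of part of a gene, and the directions below are those of the labels. The 16 peritoneal macrophage markers summed to 6741 to 13087 FPKM in KO-labelled and 1618 to 4465 FPKM in WT-labelled libraries. The 10 B cell markers summed to 4443 to 4835 FPKM in KO-labelled and 5031 to 5734 FPKM in WT-labelled libraries, and the 12 T cell markers to 190 to 221 FPKM in KO-labelled and 234 to 283 FPKM in WT-labelled libraries. By limma 1 of 15 tested macrophage markers, F5, was called higher, and 0 of 10 B cell and 0 of 12 T cell markers were called. Lymphocyte genes were high although the labels name microglia and macrophages. Defining microglia markers were low: P2ry12 reached at most 1.09 FPKM and Sall1 at most 0.152 FPKM. In bulk RNA, fewer cells of a type and less RNA per cell cannot be told apart.

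**Figure D2:**
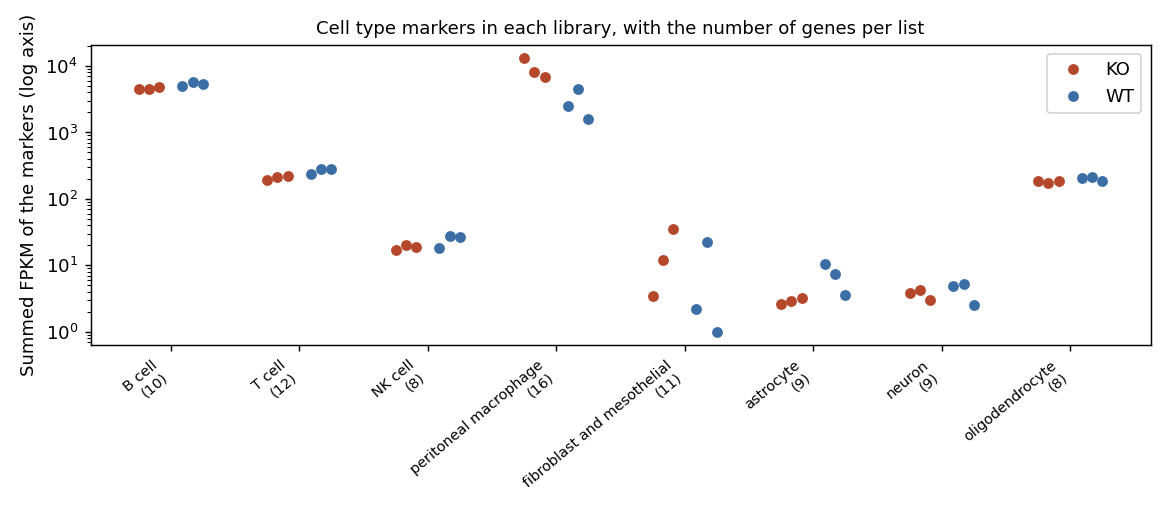
Summed FPKM of the markers of each cell type on a log axis, 1 point per library, KO-labelled in red and WT-labelled in blue, with the number of genes per list in brackets. Peritoneal macrophage markers are higher in all 3 KO-labelled libraries (6741 to 13087 against 1618 to 4465 FPKM), and B and T cell markers are lower in them.

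Fbxo2 had the widest separation of the 4. It stood at 0.307, 0.412 and 0.290 FPKM in KO-labelled libraries 1 to 3, which is 16, 21 and 14 reads, against 2.53, 1.71 and 1.33 FPKM in WT-labelled libraries 1 to 3, which is 125, 86 and 63 reads. WT-labelled library 1 was the highest, and the groups did not come near each other. The mean was 0.336 ± 0.0663 FPKM in KO-labelled and 1.86 ± 0.614 FPKM in WT-labelled libraries (SD, n = 3 each), a ratio of 0.181. At such read numbers counting error is large. The 95% Poisson interval ran from 0.255 to 0.630 FPKM for the highest KO-labelled library. For the lowest WT-labelled library it ran from 1.02 to 1.70 FPKM. These intervals, which cover counting error only, did not touch. The choice of Fbxo2 for its lack of overlap favoured that outcome.

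Mxra8 stood at 2.18, 2.22 and 2.18 FPKM in KO-labelled libraries 1 to 3 (189, 188 and 175 reads), against 5.29, 3.81 and 3.39 FPKM in WT-labelled libraries 1 to 3 (435, 319 and 267 reads). The KO-labelled libraries were almost level, and WT-labelled library 1 was again the highest. The mean was 2.19 ± 0.0233 FPKM in KO-labelled and 4.16 ± 0.999 FPKM in WT-labelled libraries (SD, n = 3 each), a ratio of 0.526.

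Insl3 stood at 8.08, 9.27 and 9.25 FPKM in KO-labelled libraries 1 to 3 (182, 204 and 193 reads), against 13.9, 12.7 and 14.6 FPKM in WT-labelled libraries 1 to 3 (296, 275 and 299 reads). The mean was 8.87 ± 0.682 FPKM in KO-labelled and 13.7 ± 0.997 FPKM in WT-labelled libraries (SD, n = 3 each), a ratio of 0.646. The length that fits its values is 587 bases. In FPKM, which is scaled by length, Insl3 was well below Jak3 in every library (8.08 to 14.6 against 57.1 to 91.0 FPKM).

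Tagap1 stood at 7.21, 7.09 and 6.89 FPKM in KO-labelled libraries 1 to 3 (884, 849 and 782 reads), against 9.58, 9.21 and 10.3 FPKM in WT-labelled libraries 1 to 3 (1112, 1089 and 1146 reads). It was the most abundant of the 4 in reads and had the smallest difference, with means of 7.06 ± 0.164 FPKM in KO-labelled and 9.70 ± 0.558 FPKM in WT-labelled libraries (SD, n = 3 each), a ratio of 0.728.

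**Figure D3:**
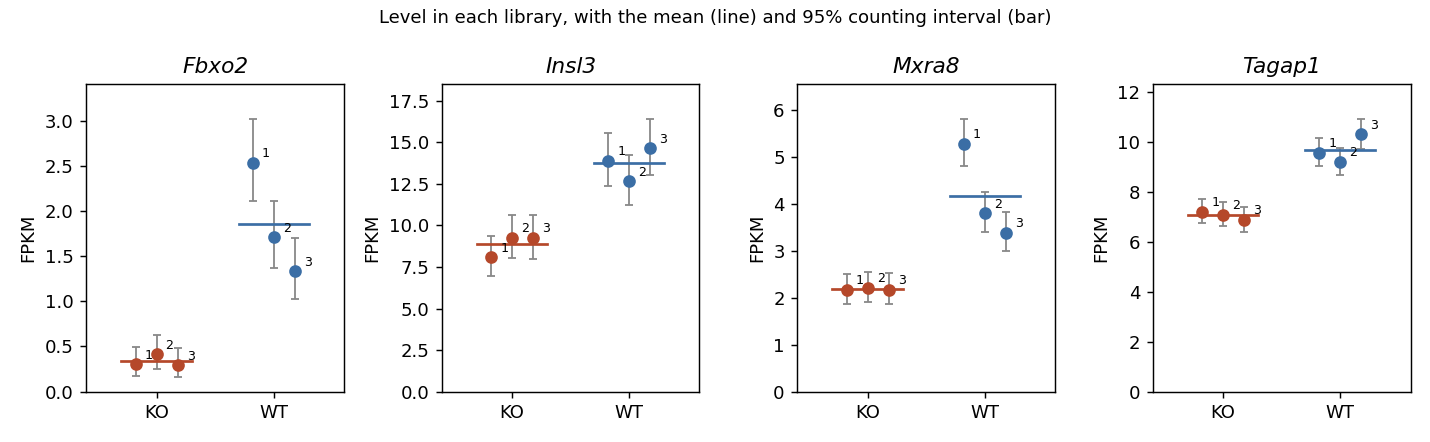
FPKM of the 4 genes in each library (numbered points), with the group mean as a line and the 95% counting interval as a bar, KO-labelled left and WT-labelled right. For each gene the 3 KO-labelled points lie below the 3 WT-labelled points, from 0.290 to 0.412 against 1.33 to 2.53 FPKM for Fbxo2 to 6.89 to 7.21 against 9.21 to 10.3 FPKM for Tagap1.

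On log2(FPKM + 1), a scale that understates the difference of low genes, the KO-labelled minus WT-labelled difference was -1.08 for Fbxo2, -0.68 for Mxra8, -0.58 for Insl3 and -0.41 for Tagap1. All 4 genes passed the filter of a mean of at least 1 FPKM, as did 10732 genes in all. Separation of this kind was common: all KO-labelled libraries lay below all WT-labelled ones for 1626 of these genes, 15.2%, and the 4 genes were picked from the far end of that range. The 4 genes were also separated under median-of-ratios scaling, rescaling to a common total and quantile normalization, under which 8.29%, 15.1% and 15.6% of genes were. Their choice for separation in FPKM favoured this. The log2 gap between the highest KO-labelled and the lowest WT-labelled library was 0.72 for Fbxo2, 0.45 for Mxra8, 0.41 for Insl3 and 0.31 for Tagap1, a value that the choice of the genes fixed to be above 0. Fbxo2 passed the filter only through its level in WT-labelled libraries. At the edge of the rule, Zfp943 was just inside, with its highest KO-labelled and lowest WT-labelled library both at 5.38 FPKM, and Smap2 was just outside, with both at 103 FPKM. By limma 0 of the 10732 genes were called lower (0%) and 3 were called higher (0.028%) at an adjusted p of 0.05, while 881 were lower (8.21%) and 951 higher (8.86%) at an unadjusted p of 0.05. All KO-labelled libraries lay above all WT-labelled ones for 9.75% of genes. Voom on the recovered reads called 0 lower and 5 higher.

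The levels were then set against Cd79a, which signals for the B cell receptor, and Cd3e, which signals for the T cell receptor, as measures of lymphocyte RNA. Cd79a itself averaged 1757 ± 70.4 FPKM in KO-labelled and 2062 ± 155 FPKM in WT-labelled libraries (SD, n = 3 each; log2 difference -0.23, SE 0.10, limma adjusted p = 0.309). Cd3e averaged 19.9 ± 2.70 FPKM in KO-labelled and 25.4 ± 3.06 FPKM in WT-labelled libraries (log2 difference -0.33, SE 0.13, limma adjusted p = 0.257). Neither passed the test, although the KO-labelled libraries lay below the WT-labelled ones for both.

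Relative to Cd79a, Fbxo2, Insl3 and Mxra8 stayed separated and Tagap1 did not. Per 1000 FPKM of Cd79a, Fbxo2 stood at 0.172, 0.246 and 0.160 FPKM in KO-labelled libraries 1 to 3, against 1.30, 0.765 and 0.663 FPKM in WT-labelled libraries 1 to 3. Mxra8 stood at 1.22, 1.32 and 1.20 FPKM in KO-labelled and 2.73, 1.70 and 1.69 FPKM in WT-labelled libraries on the same scale. Those 2 genes kept a clear distance between the groups. Insl3 stood at 4.52, 5.53 and 5.12 FPKM in KO-labelled and 7.15, 5.66 and 7.29 FPKM in WT-labelled libraries, with KO-labelled library 2 next to WT-labelled library 2. Tagap1 stood at 4.04, 4.23 and 3.81 FPKM in KO-labelled and 4.94, 4.12 and 5.13 FPKM in WT-labelled libraries, where KO-labelled library 2 lay above WT-labelled library 2. Of 10731 genes, 70 were separated downward on this scale, 0.652%. The 4 genes were chosen for their separation in FPKM, which favours separation here, so that share does not measure how unusual they are. The log2 difference of the ratio was -2.20 for Fbxo2, -0.67 for Mxra8, -0.40 for Insl3 and -0.23 for Tagap1, against -2.43, -0.90, -0.63 and -0.46 for log2 FPKM alone. Without WT-labelled replicate 1 the difference relative to Cd79a was -0.44 for Mxra8.

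Relative to Cd3e, Fbxo2 and Mxra8 stayed separated, and Insl3 and Tagap1 did not. Per FPKM of Cd3e, Fbxo2 stood at 0.0182, 0.0189 and 0.0137 FPKM in KO-labelled libraries 1 to 3, against 0.115, 0.0608 and 0.0515 FPKM in WT-labelled libraries 1 to 3. Mxra8 was separated only narrowly, at 0.129, 0.102 and 0.103 FPKM in KO-labelled and 0.240, 0.135 and 0.131 FPKM in WT-labelled libraries. Insl3 ranged from 0.425 to 0.479 FPKM in KO-labelled and from 0.450 to 0.629 FPKM in WT-labelled libraries. Tagap1 ranged from 0.325 to 0.428 FPKM in KO-labelled and from 0.328 to 0.434 FPKM in WT-labelled libraries. The ranges of Tagap1 were nearly the same. Of 10731 genes, 23 were separated downward on this scale, 0.214%, a share that again does not measure how unusual genes chosen for separation are. The log2 difference of the ratio was -2.08 for Fbxo2, -0.55 for Mxra8, -0.28 for Insl3 and -0.11 for Tagap1. Single libraries moved these values: without WT-labelled replicate 1 they were -0.27 for Mxra8, -0.18 for Insl3 and -0.020 for Tagap1, and without WT-labelled replicate 2 Tagap1 stood at -0.22. Without KO-labelled replicates 1, 2 and 3 Tagap1 stood at -0.24, -0.042 and -0.042.

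**Figure D4:**
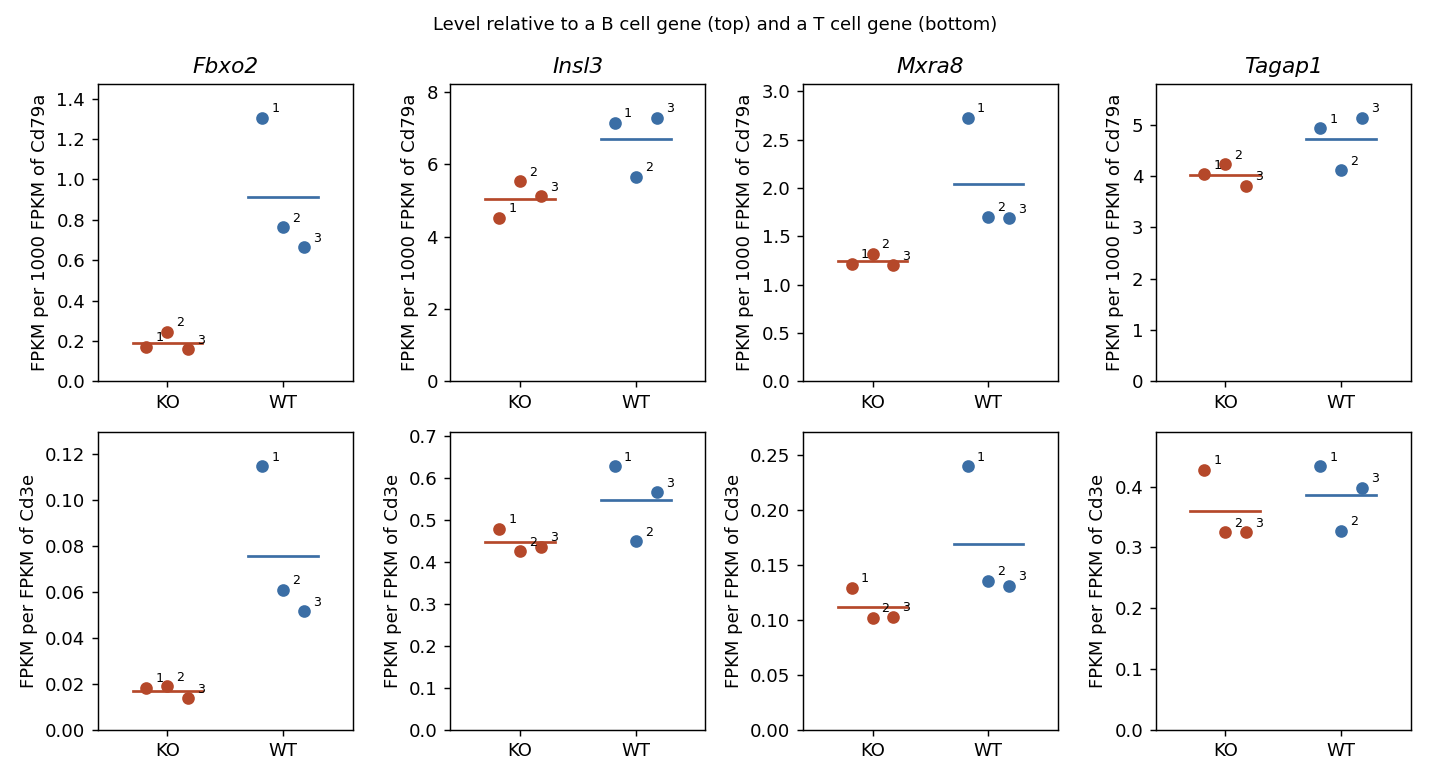
Level of each gene per 1000 FPKM of the B cell gene Cd79a (top) and per FPKM of the T cell gene Cd3e (bottom), with 1 numbered point per library and the group mean as a line, KO-labelled left and WT-labelled right. Fbxo2 keeps its separation on both scales (0.160 to 0.246 against 0.663 to 1.30 per 1000 FPKM of Cd79a), while the ranges of Tagap1 overlap on both.

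Jak3, which shares its last exon with Insl3, had the same order of groups. It stood at 57.1, 69.0 and 72.4 FPKM in KO-labelled libraries 1 to 3, against 86.2, 88.2 and 91.0 FPKM in WT-labelled libraries 1 to 3. The difference did not pass the test (log2 difference -0.42, SE 0.10, limma adjusted p = 0.130, 0.103 to 0.367 over the alternatives). Insl3 stood at 14.2%, 13.4% and 12.8% of Jak3 FPKM in KO-labelled libraries 1 to 3, against 16.1%, 14.4% and 16.1% in WT-labelled libraries 1 to 3. The groups remained apart by a small margin, which the choice of Insl3 for its separation favoured. The share of all genes separated relative to Jak3 was not computed. The log2 difference of the ratio of Insl3 to Jak3 was -0.20, against -0.63 for log2 FPKM of Insl3 alone. The profile of Insl3 over the 6 libraries, centred on its own mean, differed from that of Jak3 by a root mean square of 0.11 log2 units, from that of Cd3e by 0.19 and from that of Cd79a by 0.22. The nearness to Jak3 was not particular to this pair. Insl3 differed from Tagap1 by 0.11 and from Gm38639 by 0.075, and Tagap1 differed from Jak3 by 0.12. How many Insl3 reads lay in the shared exon was not tested, because gene-level values do not hold it.

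Tagap, the relative of Tagap1, had groups that overlapped through WT-labelled library 2. It stood at 9.71, 9.70 and 10.3 FPKM in KO-labelled libraries 1 to 3, against 10.6, 9.37 and 12.7 FPKM in WT-labelled libraries 1 to 3 (log2 difference -0.12, SE 0.11, limma adjusted p = 0.629). The log2 difference was -0.21 without WT-labelled replicate 2, -0.0083 without WT-labelled replicate 3 and -0.050 with median-of-ratios scaling. Tagap1 stood at 74.3%, 73.1% and 67.1% of Tagap FPKM in KO-labelled libraries, against 90.7%, 98.4% and 81.1% in WT-labelled libraries. Tagap1 was thus below Tagap in all 6 libraries, and the ratio did not overlap between the groups. The choice of Tagap1 for its separation favoured that. The share of all genes separated relative to Tagap was not computed.

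**Figure D5:**
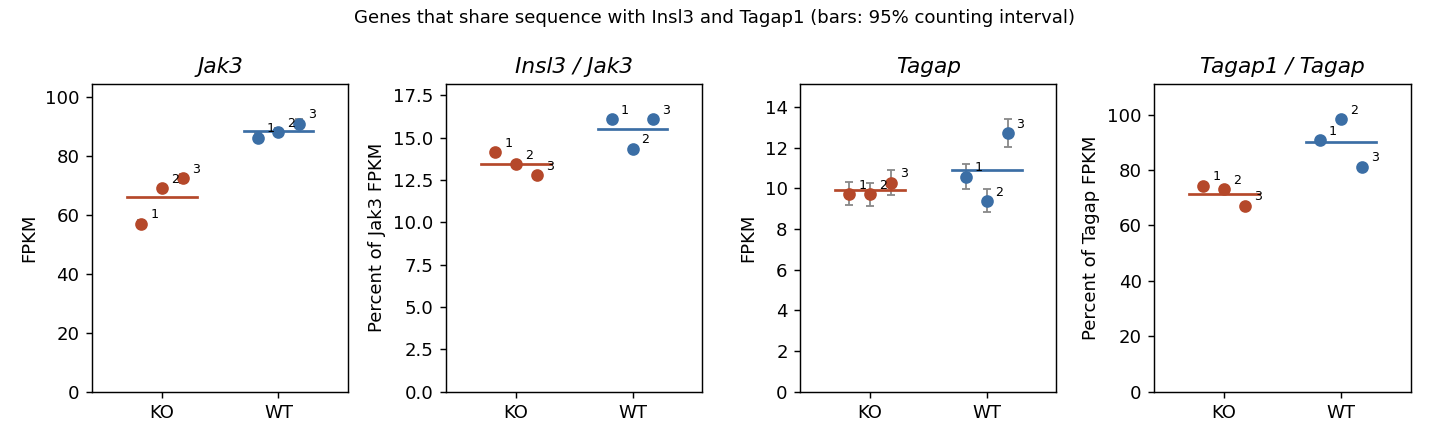
FPKM of Jak3 and Tagap and the level of Insl3 as a percentage of Jak3 and of Tagap1 as a percentage of Tagap, 1 numbered point per library with the group mean as a line, KO-labelled left and WT-labelled right. Jak3 is lower in the 3 KO-labelled libraries (57.1 to 72.4 against 86.2 to 91.0 FPKM), Tagap overlaps, and both percentages are lower in the KO-labelled libraries.

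Of the 8 neighbours of the genes along the chromosome, 6 were high enough to test and 0 were called. Fbxo44, the head-to-head neighbour of Fbxo2 and also a gene of the sugar-chain F-box family, stood at 1.58, 1.25 and 1.45 FPKM in KO-labelled and 1.80, 2.00 and 1.78 FPKM in WT-labelled libraries (log2 difference -0.24, SE 0.10, limma adjusted p = 0.300). Disp3, on the other side of Fbxo2, was too low to test, at 0.00729, 0.00249 and 0 FPKM in KO-labelled libraries 1 to 3, against 0.0950, 0.0378 and 0.0509 FPKM in WT-labelled libraries 1 to 3. The groups did not overlap for Fbxo44 or Disp3, with KO-labelled libraries below WT-labelled ones for both, as for Fbxo2. Such separation was found for 15.2% of all genes tested, a share that does not cover genes as low as Disp3. For Mxra8, Aurkaip1 averaged 38.0 ± 6.04 FPKM in KO-labelled and 39.4 ± 2.36 FPKM in WT-labelled libraries (SD, n = 3 each; limma adjusted p = 0.820), and Dvl1 averaged 25.8 ± 1.20 FPKM in KO-labelled and 29.1 ± 2.34 FPKM in WT-labelled libraries (limma adjusted p = 0.404). The groups overlapped for both neighbours of Mxra8. For Insl3, B3gnt3 averaged 2.30 ± 0.153 FPKM in KO-labelled and 2.02 ± 0.249 FPKM in WT-labelled libraries (limma adjusted p = 0.563), with every KO-labelled library above every WT-labelled one, the opposite order to Insl3. Unc13a, also too low to test, stayed at or below 0.227 FPKM. For Tagap1, Rsph3b averaged 3.20 ± 0.263 FPKM in KO-labelled and 2.94 ± 0.217 FPKM in WT-labelled libraries (limma adjusted p = 0.657), and Rnaset2b averaged 22.4 ± 3.81 FPKM in KO-labelled and 20.8 ± 2.49 FPKM in WT-labelled libraries (limma adjusted p = 0.741).

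The relatives of Fbxo2 and the genes of its pathway were mixed. Of 5 other sugar-chain F-box genes, 3 were tested and 0 were called, with a median log2 difference of -0.24 beside -0.063 over all genes tested. For 2 of the 3, Fbxo17 and Fbxo44, every KO-labelled library lay below every WT-labelled one, as for 15.2% of all genes tested. Fbxo17 stood at 1.98 ± 0.123 FPKM in KO-labelled and 3.01 ± 0.478 FPKM in WT-labelled libraries (limma adjusted p = 0.152), and Fbxo6 at 13.0 ± 2.55 FPKM in KO-labelled and 9.94 ± 1.60 FPKM in WT-labelled libraries (limma adjusted p = 0.314; SD, n = 3 each). Fbxo6, at a level per length well above that of Fbxo2, thus had the opposite sign. Of 23 genes of the SCF core and of glycoprotein disposal, 0 were called, 13 had positive and 10 negative differences, and the median was 0.0097, or -0.017 with FPKM rescaled to a common total. The ligase gene Syvn1 averaged 85.7 ± 9.54 FPKM in KO-labelled and 108 ± 2.87 FPKM in WT-labelled libraries (limma adjusted p = 0.180). The channel genes of the endoplasmic reticulum had both signs. Derl3 averaged 6.03 ± 0.893 FPKM in KO-labelled and 8.65 ± 0.893 FPKM in WT-labelled libraries (limma adjusted p = 0.143). Derl1 averaged 60.0 ± 7.53 FPKM in KO-labelled and 46.5 ± 2.40 FPKM in WT-labelled libraries (limma adjusted p = 0.172).

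Of the relaxin family beside Insl3, Insl6 alone was high enough to test. It averaged 5.41 ± 0.754 FPKM in KO-labelled and 4.72 ± 0.468 FPKM in WT-labelled libraries (SD, n = 3 each; limma adjusted p = 0.518), while Rln1, Rln3 and Insl5 stayed at or below 0.811 FPKM. Among 14 genes of common gamma chain cytokine signalling, the pathway of Jak3, 0 were called and 13 had negative differences, as did 6936 of the 10732 genes tested. The median was -0.14 beside -0.063 over all genes tested. It was -0.085 without KO-labelled replicate 1 and -0.070 with median-of-ratios scaling. Il21r, a receptor of lymphocytes, averaged 62.4 ± 6.19 FPKM in KO-labelled and 72.5 ± 0.787 FPKM in WT-labelled libraries (limma adjusted p = 0.289). The T cell marker list had the same sign, with 12 of 12 negative, a median of -0.34 and 0 called, and its part in the values of Insl3 and Jak3 was not tested.

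Tagap has been linked to antifungal signalling from Dectin-1 (Clec7a) to Card9. Of 10 genes on that list 0 were called, with a median of -0.024, or 0.045 with median-of-ratios scaling and 0.0045 without WT-labelled replicate 1. Card9 averaged 9.08 ± 0.528 FPKM in KO-labelled and 3.51 ± 1.61 FPKM in WT-labelled libraries (limma adjusted p = 0.106), with the macrophage markers in the same direction. It passed without WT-labelled replicate 2 (limma adjusted p = 0.00387), and over the alternatives its adjusted p ran from 0.00387 to 0.354. Clec7a averaged 73.1 ± 41.0 FPKM in KO-labelled and 17.3 ± 5.67 FPKM in WT-labelled libraries (limma adjusted p = 0.106), and passed without WT-labelled replicate 2 (limma adjusted p = 0.0314). Clec4n, the gene of Dectin-2, averaged 218 ± 122 FPKM in KO-labelled and 54.9 ± 14.3 FPKM in WT-labelled libraries (limma adjusted p = 0.108, and 0.0435 without that library). The part of macrophage RNA in these values was not tested.

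Of 12 matrix-remodelling and integrin genes listed beside Mxra8, 4 were tested, all integrin chains, and 0 were called. Itgb3, the partner chain that Mxra8 has been reported to bind, averaged 6.40 ± 1.47 FPKM in KO-labelled and 8.69 ± 0.923 FPKM in WT-labelled libraries (SD, n = 3 each; limma adjusted p = 0.264), and Itgav, its alpha chain, 11.4 ± 1.55 FPKM in KO-labelled and 7.75 ± 1.52 FPKM in WT-labelled libraries (limma adjusted p = 0.164). Itgb5 averaged 18.7 ± 3.65 FPKM in KO-labelled and 6.81 ± 4.23 FPKM in WT-labelled libraries (limma adjusted p = 0.120, and 0.00966 without WT-labelled replicate 2). Itgb1 averaged 169 ± 7.72 FPKM in KO-labelled and 118 ± 19.2 FPKM in WT-labelled libraries (limma adjusted p = 0.127, and 0.0307 without that library). Mxra8 is known from fibroblasts. The 11 fibroblast and mesothelial markers summed to 3.43, 12.1 and 35.7 FPKM in KO-labelled libraries 1 to 3 and to 2.21, 22.2 and 0.998 FPKM in WT-labelled libraries 1 to 3. The groups overlapped for that sum. Msln, which marks mesothelium, reached at most 0.0126 FPKM. The part of fibroblast RNA in the values of Mxra8 was not tested.

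Among the 4 genes, Insl3 and Tagap1 were most alike over the 6 libraries, with a root mean square difference of 0.11 log2 units between centred profiles, and Fbxo2 and Tagap1 least alike, at 0.39. Fbxo2 and Mxra8 differed by 0.20 and shared the high value of WT-labelled library 1. Outside the 4 genes, the profile nearest to Fbxo2 was that of Ncan, a proteoglycan of brain matrix, at 0.21 log2 units. Ncan stood at 0.433, 0.570 and 0.640 FPKM in KO-labelled libraries 1 to 3, against 2.24, 1.25 and 1.73 FPKM in WT-labelled libraries 1 to 3. Cadm4, an adhesion molecule, followed at 0.21, then Gm30135, Rgs16 and Ifi214. Nearest to Mxra8 were Zfp948 at 0.091 and Rgs16, a regulator of G protein signalling, at 0.13, followed by Trim34a, Zfp959 and Ms4a4c. For Insl3 these were Gm38639 at 0.075, Gm53567, Neil1, Zfp160 and Gm41348, and for Tagap1 A930024E05Rik at 0.051, Gm2848, Emid1, Rpap3 and Tecpr1. A small difference of this kind partly reflects a small range, since genes that vary little are close to many others.

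Astrocyte markers gave mixed values beside Fbxo2. Of the 9 markers 2 were high enough to test, 1 with a positive and 1 with a negative difference, and 0 were called. The 9 markers, Ncan among them, summed to 2.63, 2.92 and 3.20 FPKM in KO-labelled libraries 1 to 3, against 10.3, 7.45 and 3.51 FPKM in WT-labelled libraries 1 to 3, in the same order of WT-labelled libraries as Fbxo2. That sum holds Ncan, which was named for its likeness to Fbxo2, and its members did not share 1 order. Aldh1l1 stood at 1.66, 1.30 and 0.808 FPKM in KO-labelled and 1.84, 1.02 and 0.105 FPKM in WT-labelled libraries, and Gja1 at 0.171, 0.732 and 1.33 FPKM in KO-labelled and 0.755, 1.63 and 0.0717 FPKM in WT-labelled libraries, so both overlapped between the groups. Bcan and S100b were highest in WT-labelled library 3, where Fbxo2 was lowest of the WT-labelled libraries. Every KO-labelled library lay below every WT-labelled one for Ncan, Bcan (0.0587 to 0.131 against 0.139 to 0.702 FPKM), S100b (0.0471 to 0.169 against 0.179 to 0.848 FPKM) and Slc1a2 (0 to 0.0125 against 0.0403 to 0.138 FPKM). Of all genes tested 15.2% were separated in this way, a share that does not cover Bcan, S100b and Slc1a2, which were too low to test. Gfap, Aqp4 and Slc1a3 overlapped between the groups. Gfap, which defines astrocytes, stood at 0.218, 0.0971 and 0.0758 FPKM in KO-labelled libraries and at 2.69, 2.69 and 0.00387 FPKM in WT-labelled libraries, and Aqp4 was listed at 0 in KO-labelled library 3 and WT-labelled library 3. The 9 neuron markers summed to 3.79, 4.21 and 3.04 FPKM in KO-labelled and to 4.86, 5.13 and 2.49 FPKM in WT-labelled libraries, and Snap25 was listed at 0 in 5 of 6 libraries. The part of astrocyte RNA in the difference of Fbxo2 was not tested.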

How the data were processed

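RNA sequencing was done on 6 libraries, 3 labelled KO and 3 labelled WT in the sample titles. Per the labels' protocols, TRIzol served for RNA extraction and the VAHTS Universal V6 kit for library preparation. The deposited values are FPKM, fragments scaled by transcript length and library size, computed by the authors. The submitters' processing notes name the build mm10. No aligner, counter, strand setting or annotation is given in the sources used here.

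The values of a gene were whole multiples of 1 read in each library, which gave back whole reads for 99.97% of 19331 genes within 0.002 reads. A gene was tested if its mean reached 1 FPKM, on log2(FPKM + 1) with limma 3.58.1 in R 4.3.3 (mean-variance trend, Benjamini-Hochberg over 10732 genes). In simulated data the method recovered 88% of 200 genes shifted by 1 on that scale, with 13 false calls. Such a shift is more than 2-fold in FPKM, most so for low genes. The simulated noise was independent between genes, so noise that genes share was not in it. Members and gene lists were chosen with earlier results of these data known. The genes named were the 4 members, Cd79a and Cd3e, chromosomal neighbours and overlapping genes, the 5 genes with the nearest profile to each member, and up to 4 genes per pathway list with the smallest limma p. Ppara, single markers such as Gfap and P2ry12, and the low relaxin-family genes fall outside that rule and were named after their values were seen. Python 3.11.15 with scipy 1.17.1, numpy 2.4.6 and pandas 2.3.3 gave the profiles, ratios and exact Poisson intervals; matplotlib 3.10.9 drew the plots. The alternatives were other pseudocounts, filters and scalings, a replicate block, a fit without trend, voom on recovered reads, and leaving out each library. Results of 1 further gene list and 1 marker gene are not reported here.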

Additional observations from a re-analysis of the deposited data

How the results depend on the processing

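The sign of the differences of Fbxo2, Insl3, Mxra8 and Tagap1 was fixed by their choice as genes without overlap, so that it says nothing of stability when a library or the pseudocount is changed, and only their sizes are given. With a pseudocount of 5 the differences were -0.36, -0.43, -0.34 and -0.28 for Fbxo2, Insl3, Mxra8 and Tagap1, the pseudocount being large against these levels by construction. On the same setting the differences relative to Cd79a were -0.13, -0.20, -0.12 and -0.056, and relative to Cd3e -0.074 for Fbxo2 and -0.060 for Mxra8. With a pseudocount of 0.1, Fbxo2 stood at -2.13 and Mxra8 at -0.87, and with voom on recovered reads at -2.40 and -0.90. With median-of-ratios scaling Tagap1 stood at -0.34, and the list medians at 0.082 for the SCF core and glycoprotein disposal, -0.070 for gamma chain signalling and 0.045 for Dectin-1 signalling, which changed sign. With FPKM rescaled to a common total the SCF median was -0.017. Leaving out 1 library gave -1.21 to -0.91 for Fbxo2, -0.63 to -0.52 for Insl3, -0.79 to -0.53 for Mxra8 and -0.44 to -0.37 for Tagap1, -0.19 to -0.085 for the gamma chain median, 0.0034 to 0.043 for the SCF median and -0.069 to 0.0045 for the Dectin-1 median, which was above 0 without WT-labelled replicate 1. Genes called higher numbered 3, and 6 with a pseudocount of 5, 0 with no filter, 11 with the replicate block, 5 with voom and 0 to 500 without 1 library. Genes called lower numbered 0, and 0 to 38 without 1 library, the highest counts being without WT-labelled replicate 2. The cause of these changes was not tested. The main fit did not treat same-numbered libraries as pairs. Deviations from the group mean correlated at -0.21, -0.38 and 0.27 between same-numbered libraries, and at -0.36 to 0.47 between differently numbered ones. With 3 libraries per group, such values cannot show whether the libraries were made as pairs. A gene with 14 to 21 reads, such as Fbxo2 in KO-labelled libraries, carries a wide counting interval, so that at this depth slight differences could not be seen.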
